A study of Homo sapiens with 8 samples.

Results

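The genes described here are 45 genes of the integrated stress response, made up of the transcription factor ATF4, its partner factors and their known target genes. They were taken from a list of symbols and matched by Entrez identifier, and 45 of the 45 were found among the 18478 genes of the authors' expression table. The RNA came from the melanoma lines A2058 and C8161, both of human origin and long established in culture. Each line carried either ATF3, brought in by a retrovirus, or a neomycin control, and the medium of every group was DMEM with 10% fetal bovine serum. ATF3 encodes a transcription factor of the ATF/CREB family that is itself a textbook target of ATF4. The labels list 1 library for each A2058 arm and 3 libraries for each C8161 arm, 8 in all; whether those 3 come from different cultures or transductions is not stated. The table gives 1 column per arm, and each C8161 column is the authors' combined value for the arm. No SD, n or p-value can therefore be given for any gene, and every difference below describes 1 value against 1 value.

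The integrated stress response starts when 1 of a family of kinases, each tuned to a different stress such as amino acid shortage, misfolded protein in the endoplasmic reticulum, viral RNA or lack of haem, phosphorylates the translation factor eIF2. Translation of most mRNAs then slows, while that of the ATF4 mRNA increases, so ATF4 protein is set mainly by translation and not by the level of its mRNA. ATF4 pairs with C/EBP and other factors and switches on genes for amino acid uptake, amino acid synthesis and tRNA charging. It also switches on the cell death regulator DDIT3 and the feedback subunit PPP1R15A, which directs a phosphatase to eIF2. In tumours the pathway is known as a means of tolerating nutrient shortage.

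Levels are given in RPKM, reads scaled by transcript length in kilobases and by library size, so that different genes can be compared. In A2058 the spacing of low values put the depth near 17800000 reads (ATF3) and 17900000 reads (control). These are approximate. The match to steps of whole reads, where 1 is perfect, was 0.278 and 0.273, against at most 0.188 and 0.190 at more distant depths. The combined C8161 columns gave no such estimate. Between 10866 and 11753 genes per column had at least 1 RPKM. ATF3 itself was at 62.6 RPKM in C8161 with ATF3 against 4.76 RPKM in its control, and at 4.71 RPKM in A2058 with ATF3 against 1.22 RPKM, so both pairs of columns differ in the direction of their labels. Reads of the retroviral and the endogenous ATF3 copy are counted as 1 gene. The 8 melanocyte lineage markers (MITF, SOX10, PMEL, MLANA, TYR, DCT, TYRP1 and S100B) summed to 1510 and 1547 RPKM in the A2058 columns but to 1.60 and 1.74 RPKM in the C8161 columns. The lineage markers of melanoma were thus at or near 0 in C8161, and the label of this line is not supported by them. The 5 markers of dedifferentiated melanoma (AXL, NGFR, EGFR, SOX9 and JUN) summed to 451 and 455 RPKM in C8161 against 17.6 and 19.4 RPKM in A2058. Of these, NGFR went the other way, at 0.06 and 0.07 RPKM in C8161 against 2.93 and 3.28 RPKM in A2058. Of the markers of other cell types, the 7 fibroblast markers summed to at most 21.5 RPKM in any column, and the 6 endothelial markers to 76.5 and 81.6 RPKM in C8161 against 2.13 and 2.25 RPKM in A2058. The endothelial sum in C8161 came almost wholly from TIE1 and CDH5, while PECAM1, VWF, KDR and TEK were under 1 RPKM in all 4 columns. The 5 leukocyte markers found summed to between 30.3 and 40.9 RPKM per column, mostly from CD68. The 4 keratinocyte markers found summed to between 15.5 and 31.9 RPKM, mostly from KRT10.

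ATF4 binds its targets as a partner of C/EBP proteins at a composite element, the C/EBP-ATF response element, written TGATGNAA here. This motif, the CRE TGACGTCA and the AP-1 motif TGANTCA were searched on both strands from 250 bases before to 50 bases after each transcription start of RefSeq (GRCh38.p14). None of the 3 motifs contains another, and no sites found in the members overlapped. Of the 45 genes, 36 had a promoter in the table, and ALDH1L2, GPT2, LARS1, NUPR1, PSPH, PYCR1, SHMT2, SLC7A11 and YARS1 had none. TGATGNAA was present in 15 of the 36 genes (41.7%), against 4.46% of the 27305 genes with a promoter and 2.82% of the 10180 such genes compared in either line. The CRE was present in 1 of the 36 (2.78%, against 2.25% of all genes) and the AP-1 motif in 3 (8.33%, against 9.37%). Among the members, the response element was far more frequent than among all genes, while the other motifs were about as frequent as elsewhere. As the list is made of ATF4, its partners and known targets, the share of this element is not independent of that choice. A match is a description of the letters in this window and not a bound site. The following stretches, from 5′ to 3′ on the strand of the gene, show the element in 5 genes of different roles, with the motif in capitals; TTGCATCA is a form of TGATGNAA read on the opposite strand. ASNS is at chr7:97872453-97872492 on the minus strand, IARS1 at chr9:92293698-92293726 on the minus strand, CHAC1 at chr15:40953246-40953285 on the plus strand, AARS1 at chr16:70289670-70289709 on the minus strand and FGF21 at chr19:48755454-48755493 on the plus strand.
ASNS: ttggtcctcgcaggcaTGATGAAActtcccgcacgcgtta
IARS1: ccgcattttcagcgcgTTGCATCAcctcc
CHAC1: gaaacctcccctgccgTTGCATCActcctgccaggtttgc
AARS1: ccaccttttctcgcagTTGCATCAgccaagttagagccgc
FGF21: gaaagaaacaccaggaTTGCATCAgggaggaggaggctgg

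The element stood 68 bases before the start in ASNS, 13 in IARS1, 209 in CHAC1, 187 in AARS1 and 54 in FGF21. The next stretches are shown because their genes are among the 4 members that were higher with ATF3 in C8161, described below. Their genes hold a motif of the ATF/CREB or AP-1 type, and no TGATGNAA was found within the window searched. PPP1R15A (chr19:48872347-48872386, plus strand) holds the CRE 58 bases before its start. ATF5 (chr19:49928702-49928740, plus strand) and DDIT3 (chr12:57520733-57520767, minus strand) hold the AP-1 motif 188 and 238 bases before theirs. DDIT4, the fourth of these genes, held none of the 3 motifs in this window. The remaining member with the AP-1 motif, SLC3A2, holds it 37 bases before a start and also holds TGATGNAA. Its log2 ratio in C8161 was 0.03, so it was not among the higher members.
PPP1R15A: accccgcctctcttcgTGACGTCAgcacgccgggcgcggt
ATF5: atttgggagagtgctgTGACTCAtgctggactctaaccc
DDIT3: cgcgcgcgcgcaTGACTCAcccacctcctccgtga

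By role, TGATGNAA was found in 4 of 5 amino acid transporters and in 7 of 11 tRNA synthetases (XPOT counted among them), but in 1 of 5 transcription factors, 1 of 5 feedback and stress effectors and 0 of 3 enzymes of serine and one-carbon metabolism. Its holders were SLC1A4, SLC1A5, SLC3A2, SLC7A1, AARS1, CARS1, GARS1, IARS1, MARS1, NARS1, TARS1, CEBPG, CHAC1, ASNS and FGF21. The members called higher with ATF3 in C8161 before any trends were removed were therefore all outside this group. With the GC and length trends removed, described below, the holder CHAC1 was also higher, at 0.27.

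The first comparison asks how these genes differed between C8161 with ATF3 and the C8161 control. The transcription factors and the feedback genes stood highest, and the enzymes of amino acid synthesis lowest. A difference is the log2(RPKM + 1) of the ATF3 column less that of the control column, for genes that had 1 RPKM or more in either column; this scale understates differences of low genes. A gene is called higher or lower at a log2 ratio of 0.2, about 1.15-fold. Of the 45 genes, 43 were compared, while ALDH1L2 and FGF21 stayed under 1 RPKM in all 4 columns. In C8161, 4 of the 43 (9.30%) were higher, against 5.33% of all 10941 genes, and 2 (4.65%) were lower, against 6.63%. A log2 ratio above 0 was found for 28 of the 43 (65.1%), against 52% of all genes, and the median was 0.06 against 0.01. The shares called lie near those of all genes, so at this size and without removal of trends the list as a whole is not set apart. With the trends with GC content and transcript length removed, described below, 7 of the 43 were higher, against 540 of 10861 genes, a larger share. Lower was then 1, against 391. As a second description, a level band was drawn for each gene from the 500 genes closest to it in mean RPKM and holds the middle 95% of their ratios. Above the band lay 3 members, PPP1R15A, ATF5 and DDIT4, with 2.63% of all genes above theirs, and 1 member, PYCR1, lay below it, with 2.6% of all genes below.

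**Figure D1:**
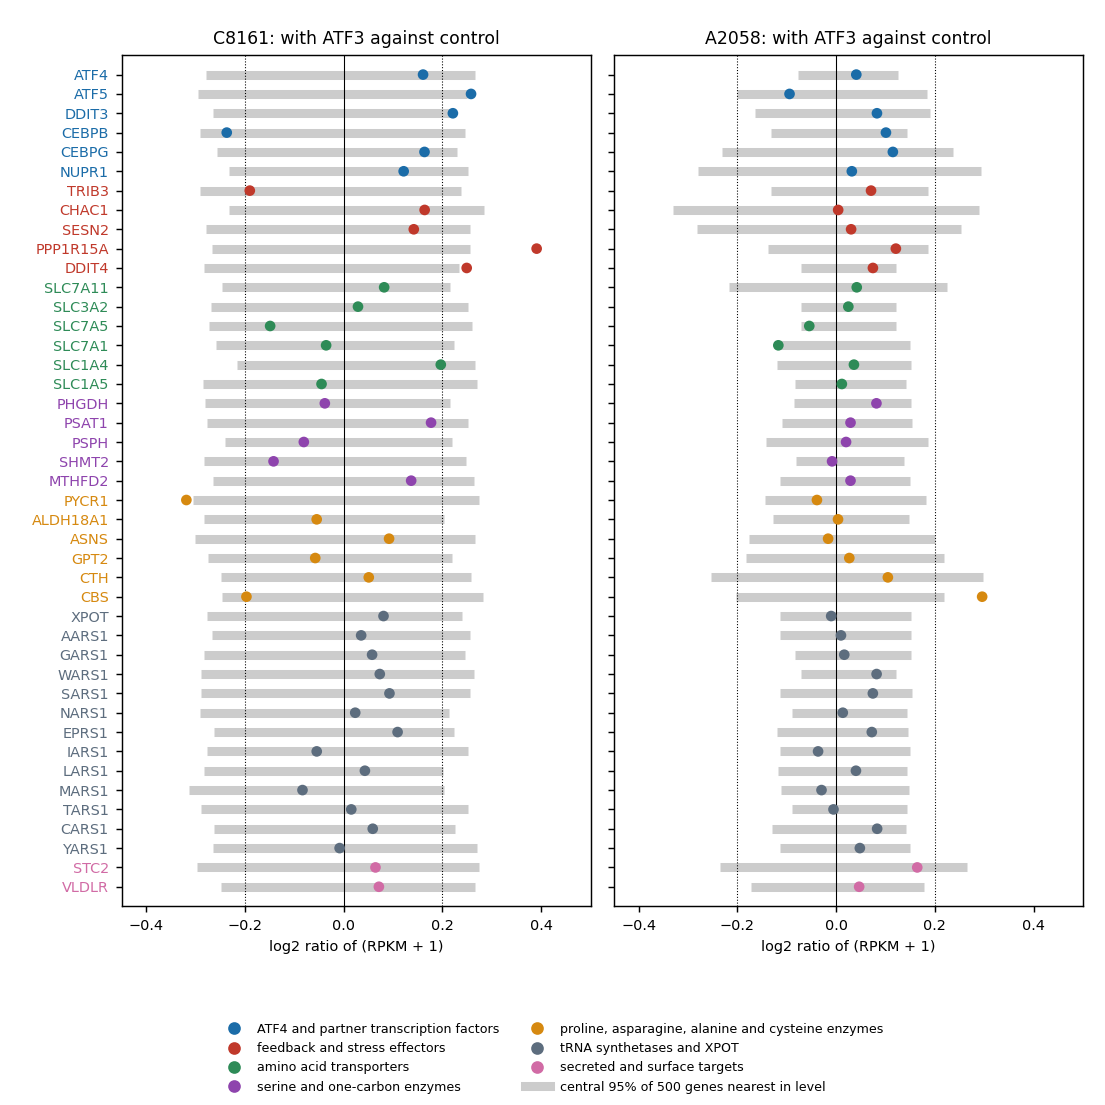
Log2 ratio of RPKM + 1, ATF3 minus control, for the 43 genes compared (rows), in C8161 (left) and A2058 (right). Each point is 1 gene, coloured by role; grey bars are the central 95% of the 500 genes nearest in level, and dotted lines mark 0.2 in each direction. PPP1R15A, ATF5 and DDIT4 lie above and PYCR1 below the bars in C8161, and CBS above them in A2058.

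PPP1R15A, also called GADD34 (Entrez gene 23645; chromosome 19, 48872421 to 48876058, GRCh38.p14), recruits protein phosphatase 1 to dephosphorylate eIF2 and so restores translation. It was at 101 RPKM in C8161 with ATF3 and at 76.7 RPKM in the C8161 control, against 21.9 and 20.0 RPKM in A2058 with ATF3 and control. Both C8161 columns were thus well above both A2058 columns, and within each line the column with ATF3 was the higher. The difference in C8161 was 1.32-fold in RPKM, a log2 ratio of 0.39, the highest among the members. DDIT4 (chromosome 10, 72273924 to 72276036), also called REDD1, is a stress-induced inhibitor of the growth kinase complex mTORC1. It was at 27.6 RPKM in C8161 with ATF3 and 23.1 RPKM in control, a log2 ratio of 0.25, and at 295 and 280 RPKM in A2058. An antisense RNA, DDIT4-AS1, covers 41.2% of its exon bases, and whether the counting used strand is not given in the sources used here, so reads of both cannot be told apart.

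The remaining feedback and stress effectors lay inside their bands in C8161. TRIB3, a pseudokinase that binds and restrains ATF4 and AKT, was at 25.2 RPKM with ATF3 and 28.9 RPKM in control, a log2 ratio of −0.19. CHAC1, which degrades glutathione, was at 2.63 and 2.24 RPKM, a log2 ratio of 0.16. SESN2, a leucine sensor that restrains mTORC1, was at 10.3 and 9.25 RPKM, a log2 ratio of 0.14. With 4 of 5 ratios above 0 and a median of 0.16, this role group differed by gene, TRIB3 being the one below 0.

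Among the transcription factors, ATF4 (Entrez gene 468; chromosome 22, 39520559 to 39522686) was the most abundant in every column. Its level was 226 RPKM in C8161 with ATF3, 202 RPKM in the C8161 control, 184 RPKM in A2058 with ATF3 and 179 RPKM in the A2058 control. Its log2 ratio in C8161, 0.16, lay inside the band, which reached from −0.28 to 0.27. Its mRNA was thus at a similar level in all 4 columns, and as ATF4 is controlled mainly in translation, this level does not report its activity. ATF5, a close relative of ATF4 that is also controlled by translation, was at 23.7 RPKM in C8161 with ATF3 and 19.6 RPKM in control, a log2 ratio of 0.26, just above its band. In A2058 it was at 8.77 RPKM with ATF3 and 9.43 RPKM in control, on the other side of 0. NUP62, which shares 21.2% of the exon bases of ATF5 on the opposite strand, was at 62.8 and 63.5 RPKM in C8161 and differed by a log2 ratio of −0.02.

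DDIT3, also called CHOP, a C/EBP family factor that promotes cell death under lasting stress, was at 53.3 RPKM in C8161 with ATF3 and 45.6 RPKM in control. This gave a log2 ratio of 0.22, at the very edge of its band (0.22), and in A2058 its levels were 16.6 and 15.6 RPKM. Its partner on the opposite strand, the methionyl-tRNA synthetase gene MARS1, is itself a member and shares 27.2% of the exon bases of DDIT3. MARS1 was at 55.3 and 58.6 RPKM in C8161, a log2 ratio of −0.08, so both genes of the pair differed in opposite directions. CEBPB, a C/EBP factor that pairs with ATF4, was at 26.9 RPKM in C8161 with ATF3 and 31.9 RPKM in control, a log2 ratio of −0.24, inside its band. CEBPG, the C/EBP partner of ATF4 in amino acid and redox genes, was at 12.1 and 10.7 RPKM, a log2 ratio of 0.16. The remaining factor, NUPR1, a small stress-induced chromatin protein, had a log2 ratio of 0.12 at under 5 RPKM in every column. In all, 5 of 6 factors lay above 0 in C8161 with a median of 0.16, and CEBPB lay below.

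The 6 amino acid transporters were divided, 3 above and 3 below 0, with a median of −0.00 in C8161 and none called. SLC1A4, a carrier of alanine, serine and cysteine, was at 4.57 RPKM with ATF3 and 3.86 RPKM in control, a log2 ratio of 0.197, just short of the size used. SLC7A5, the large neutral amino acid exchanger LAT1, was at 72.5 and 80.5 RPKM, a log2 ratio of −0.15. Its partner chain SLC3A2 was at 179 and 175 RPKM, a log2 ratio of 0.03. SLC7A11, the cystine importer, SLC7A1, a carrier of arginine and lysine, and SLC1A5, the glutamine carrier, lay between −0.04 and 0.08.

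The biosynthetic enzymes were mostly below 0 in C8161. Of the 5 enzymes of serine and one-carbon metabolism compared, 3 were below 0, and the range was −0.14 (SHMT2, mitochondrial serine hydroxymethyltransferase) to 0.18 (PSAT1, which makes phosphoserine). PHGDH, the entry enzyme of serine synthesis, PSPH, its last enzyme, and MTHFD2, a mitochondrial folate enzyme, lay between these. ALDH1L2, another mitochondrial folate enzyme, was at 0.05 to 0.21 RPKM in the 4 columns. Of the 6 enzymes of proline, asparagine, alanine and cysteine synthesis, 4 were below 0. PYCR1, which makes proline in mitochondria (Entrez gene 5831; chromosome 17, 81932391 to 81937300), had a level of 16.9 RPKM with ATF3 and of 21.4 RPKM in control. Its log2 ratio, −0.32, was the lowest among the members and just outside its band, whose lower edge was −0.31. ASNS, asparagine synthetase, the classic target through the promoter element shown above, was at 20.4 and 19.1 RPKM in C8161, a log2 ratio of 0.09, and at 14.1 and 14.3 RPKM in A2058. Of its sequence 85.1% is shared with other transcripts, and AC079781.5, on the same strand, covers 44.6% of its exon bases. How reads were divided between them is not given in the sources used here. CBS, which condenses serine with homocysteine, was at 2.28 and 2.76 RPKM, a log2 ratio of −0.197, also just short of that size. CTH, the next enzyme toward cysteine, was at 1.60 and 1.51 RPKM, a log2 ratio of 0.05. ALDH18A1, which acts before PYCR1, and GPT2, the mitochondrial alanine transaminase, were at log2 ratios of −0.05 and −0.06.

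The cytosolic tRNA synthetases, which load amino acids onto tRNAs, and XPOT, which exports tRNA from the nucleus, differed little in C8161. Of these 13 genes 10 were above 0 in C8161, from −0.08 (MARS1) to 0.11 (EPRS1), with a median of 0.04 and none called. Levels in the 4 columns ran from 30.9 RPKM (CARS1 in the A2058 control) to 310 RPKM (WARS1 in A2058 with ATF3). Of the secreted and surface targets, STC2, a secreted glycoprotein induced by stress, was at 19.4 and 18.5 RPKM in C8161, and VLDLR, a lipoprotein receptor, at 5.22 and 4.92 RPKM. FGF21, a secreted metabolic hormone, was listed at 0 RPKM in 3 columns and at 0.01 RPKM in C8161 with ATF3; its promoter holds the element.

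**Figure D2:**
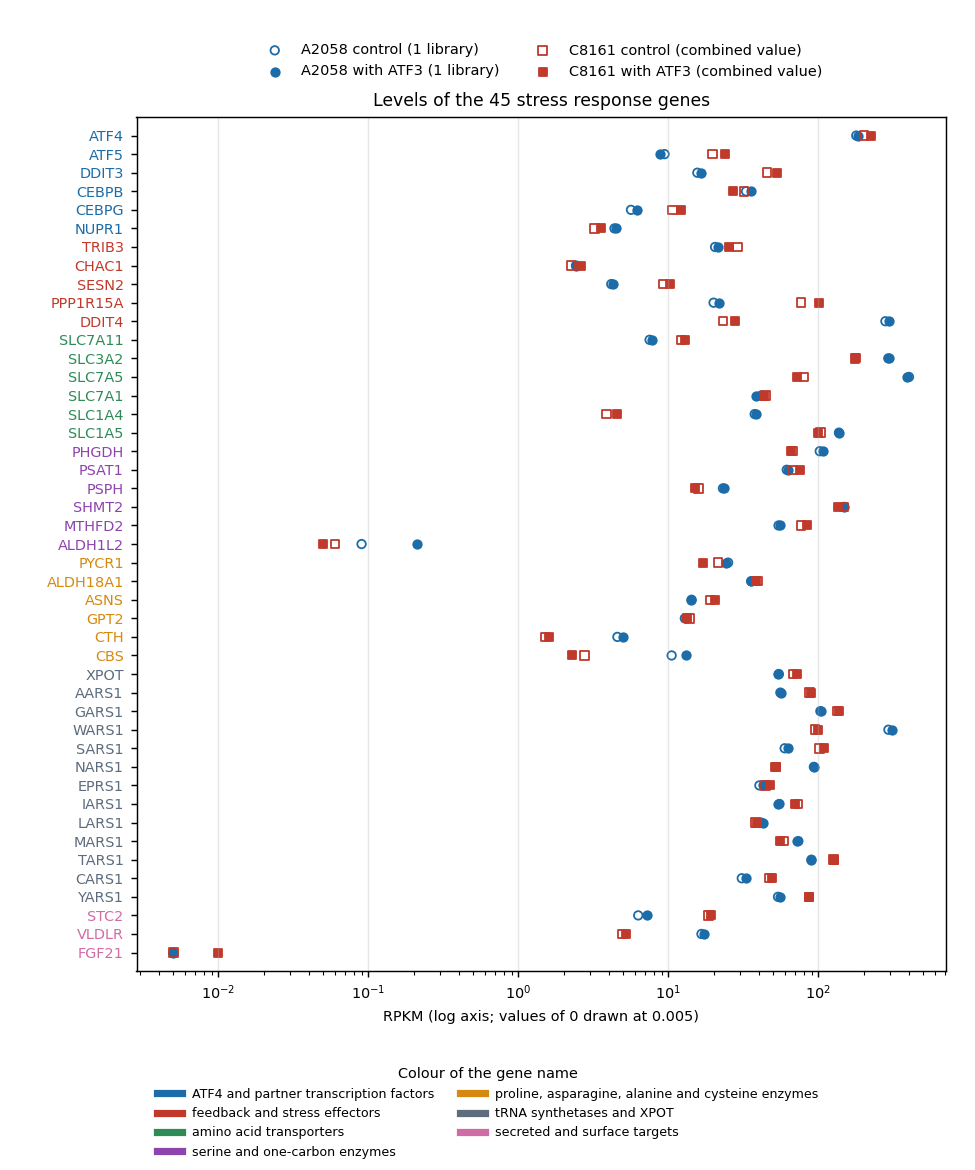
Level of each of the 45 genes (rows, name coloured by role) in RPKM on a log axis, in A2058 (circles) and C8161 (squares), control open and with ATF3 filled; values of 0 are drawn at 0.005. The marks of 1 line lie close together for nearly all genes, whereas the 2 lines are far apart for DDIT4, SLC1A4, SLC7A5 and PPP1R15A.

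Before the removal of GC and length trends, members with a TGATGNAA match showed no larger differences in C8161 than those without one. Of 14 compared members that hold the element, 10 were above 0 and 0 were called, with a median of 0.03 and a range of −0.08 to 0.20. Of 21 members with no match in the window searched, 15 were above 0, 4 were higher and 1 was lower. Their median was 0.08 and their range −0.24 to 0.39. Sequence outside that window was not searched. PYCR1, the other lower gene, had no promoter entry. With the trends removed, CHAC1, a holder of the element, was higher at 0.27, and the other members then higher held no match.

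In A2058 the differences between both arms were smaller. Of 43 members compared 1 (2.33%) was higher, against 4.23% of 11883 genes, and 0 were lower, against 3.51%. The 1 higher gene, CBS, also lay above its band, as did 2.55% of all genes, and 0 members lay below, with 2.63% of all genes there. A ratio above 0 was found for 33 of the 43 (76.7%), against 51.3% of all genes, with a median of 0.03 against 0.00. Most members thus lay on the positive side in A2058, by amounts under the size used here. With trends of the ratios with GC content and transcript length removed, described below, 28 of the 43 lay above 0. Of all genes, 6016 of 11758 then did, and the members' median was 0.02. PPP1R15A had a log2 ratio of 0.12, STC2 one of 0.16 (7.17 and 6.29 RPKM) and CEBPG one of 0.11 (6.18 and 5.63 RPKM), which were the higher values among members other than CBS. SLC7A1 was lowest, at −0.12. From the estimated depth, the counting error of the log2 ratio was 0.07 for PPP1R15A, 0.08 for STC2, 0.10 for CEBPG and 0.23 for CHAC1, the gene with the fewest reads among those compared. These errors assume that approximate depth and the transcript lengths of GENCODE 29, and they cover counting only. In bulk RNA, less of a transcript per cell and fewer cells that hold it cannot be told apart.

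CBS needs care, since its sequence is nearly duplicated. It was at 13.1 RPKM in A2058 with ATF3 and 10.5 RPKM in control, a log2 ratio of 0.30. CBSL, a near-identical copy (Entrez gene 102724560), was at 14.5 and 19.1 RPKM, a log2 ratio of −0.37. Of the sequence of CBS, 97.2% is shared with other transcripts, and of that of CBSL 96.5%. The sum of both genes was 27.7 RPKM with ATF3 and 29.6 RPKM in control, a log2 ratio of −0.09, while the share of CBS in the sum was 47.5% and 35.5%. With both copies summed, 0 members were higher in A2058. How reads were divided between the copies, and its part in the value of CBS, was not tested. In C8161 the sum was 7.84 and 8.56 RPKM, a log2 ratio of −0.11.

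Set side by side, the lines showed the same sign for 30 of the 43 members (69.8%), 24 of them above 0 in both, against 47.4% of the 10331 genes compared in both lines. Trends with GC content and transcript length were not removed for these counts. The sizes of the ratios were not alike. Across the members Pearson's r between the ratios of the 2 lines was 0.06 and Spearman's rho 0.26, and across all genes −0.01 and −0.05. These are correlations across genes within 1 pair of columns per line, given as descriptions. PPP1R15A (0.39 and 0.12), DDIT4 (0.25 and 0.07), DDIT3 (0.22 and 0.08) and ATF4 (0.16 and 0.04) were above 0 in C8161 and in A2058, each with the larger value in C8161. ATF5 (0.26 and −0.09), CEBPB (−0.24 and 0.10), TRIB3 (−0.19 and 0.07) and CBS (−0.20 and 0.30) had opposite signs. The sum of CBS and CBSL was below 0 in both lines, at −0.11 and −0.09. The difference between the lines could not be tested with 1 value per arm.

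In C8161 the ratios of all genes followed GC content, with a Spearman correlation of −0.42 across 10861 genes, against 0.09 in A2058. Across the 43 members it was −0.27 in C8161. With transcript length the correlation across all genes was 0.20 in C8161 and −0.23 in A2058. Of all genes with a GC content above 57.7%, 2.62% were higher in C8161, whereas 3 of the 11 members in that range were higher, namely PPP1R15A (GC content 58.8%), DDIT4 (58.1%) and ATF5 (60.0%). These genes thus stood against the trend of genes of like composition. The lower members CEBPB (66.2%) and PYCR1 (61.8%) lay in the same range, where the median ratio of all genes was −0.10, and both were below that median. After the trends with GC content and transcript length were removed, 7 of the 43 members were higher in C8161, against 4.97% of 10861 genes, and 1 was lower, against 3.6%. The 7 were PPP1R15A (0.46), ATF5 (0.34), DDIT4 (0.32), CHAC1 (0.27), DDIT3 (0.24), ATF4 (0.21) and SESN2 (0.21), all of them transcription factors or feedback and stress effectors. Of these, CHAC1 (2.63 and 2.24 RPKM), ATF4 and SESN2 lay inside their bands, which were drawn before the removal. The 1 lower member was PYCR1 at −0.22, inside its band, while CEBPB was at −0.10 and TRIB3 at −0.10. What gave rise to the GC trend was not tested.

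**Figure D3:**
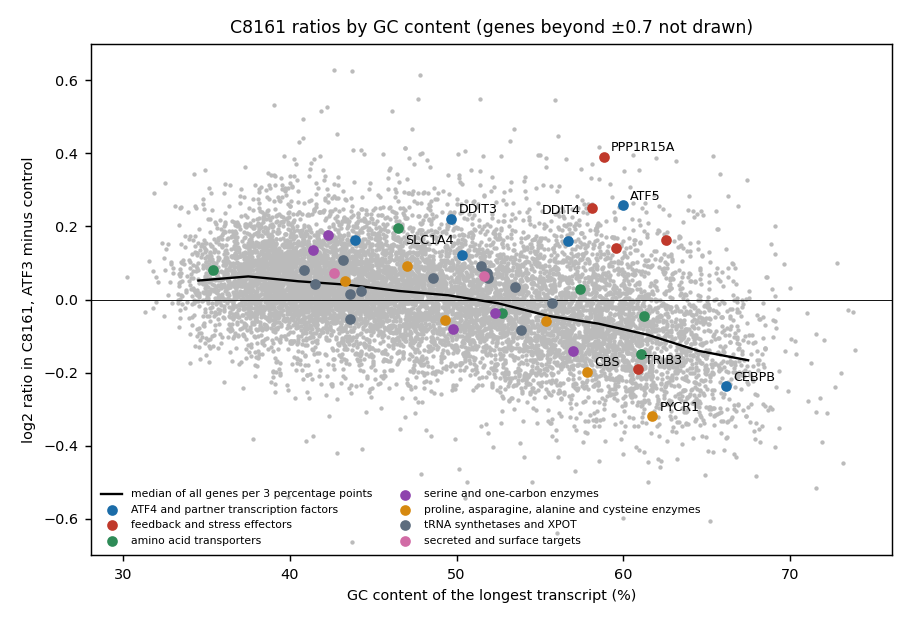
Log2 ratio in C8161 (RPKM + 1, ATF3 minus control) against the GC content of the longest transcript in percent; grey points are all genes compared, coloured points the members by role, and the black line is the median of all genes per 3 percentage points. PPP1R15A, DDIT4 and ATF5 lie far above the line at their GC content, while CEBPB and PYCR1 lie below it.

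The last comparison sets the C8161 control beside the A2058 control, where several members differed far more than with ATF3. It compares a combined value with a single library, and its control columns are those of the comparisons above. At a log2 ratio of 1, that is 2-fold in RPKM + 1, 3 of the 43 members (6.98%) were higher in C8161, against 9.36% of 12372 genes. Lower were 7 (16.3%), against 20.7%. A ratio above 0 was found for 24 (55.8%), against 40.7% of all genes, and the median was 0.12 against −0.19. Summed over the members, RPKM made up 0.648% of the column total in the A2058 control and 0.494% in the C8161 control. With ATF3 these shares were 0.652% and 0.519%.

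DDIT4 differed most between the lines, at 280 RPKM in A2058 and 23.1 RPKM in C8161, 12.1-fold lower in C8161. SLC1A4 was at 37.6 RPKM in A2058 and 3.86 RPKM in C8161, 9.75-fold lower. SLC7A5 was at 402 RPKM, the highest level of any member, and 80.5 RPKM, 4.99-fold lower. Both of these transporters carry neutral amino acids, and their relatives differed less. SLC3A2, the partner of SLC7A5, was at 293 and 175 RPKM, and SLC1A5, the relative of SLC1A4, at 137 and 103 RPKM. Lower in C8161 were also WARS1, tryptophanyl-tRNA synthetase (293 and 94.8 RPKM), VLDLR (16.6 and 4.92 RPKM), CBS (10.5 and 2.76 RPKM) and CTH (4.57 and 1.51 RPKM). CBS and CTH, which act in sequence in cysteine synthesis, were thus both lower, and the sum of CBS and CBSL was also lower, at 8.56 against 29.6 RPKM. NARS1, asparaginyl-tRNA synthetase, was next at 93.3 and 51.7 RPKM, 1.81-fold lower.

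Higher in the C8161 control were PPP1R15A, DDIT3 and STC2. PPP1R15A was at 76.7 RPKM against 20.0 RPKM in A2058, 3.83-fold higher. DDIT3 was at 45.6 against 15.6 RPKM, 2.92-fold, and STC2 at 18.5 against 6.29 RPKM, 2.94-fold. Just under the size used lay SESN2 (9.25 against 4.16 RPKM, a log2 ratio of 0.99) and ATF5 (19.6 against 9.43 RPKM, 0.98). In RPKM itself, without the added 1, these were 2.22-fold and 2.08-fold higher. CEBPG (0.81), SARS1 (0.76), the seryl-tRNA synthetase gene, and YARS1 (0.68), the tyrosyl-tRNA synthetase gene, followed. ATF4 itself differed by a log2 ratio of 0.17 only. The shares of members past a log2 ratio of 1 lay below those of all genes, at 6.98% against 9.36% higher and 16.3% against 20.7% lower. With the GC and length trends removed 5 of the 43 were higher, against 1119 of 12239 genes, and 8 were lower, against 2369. The higher share of the members was thus no longer below that of all genes. A relation of these differences to the ATF4 mRNA was not tested. Among the 13 synthetase and XPOT genes 9 were above 0 with a median of 0.36, in contrast to WARS1 at −1.62.

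**Figure D4:**
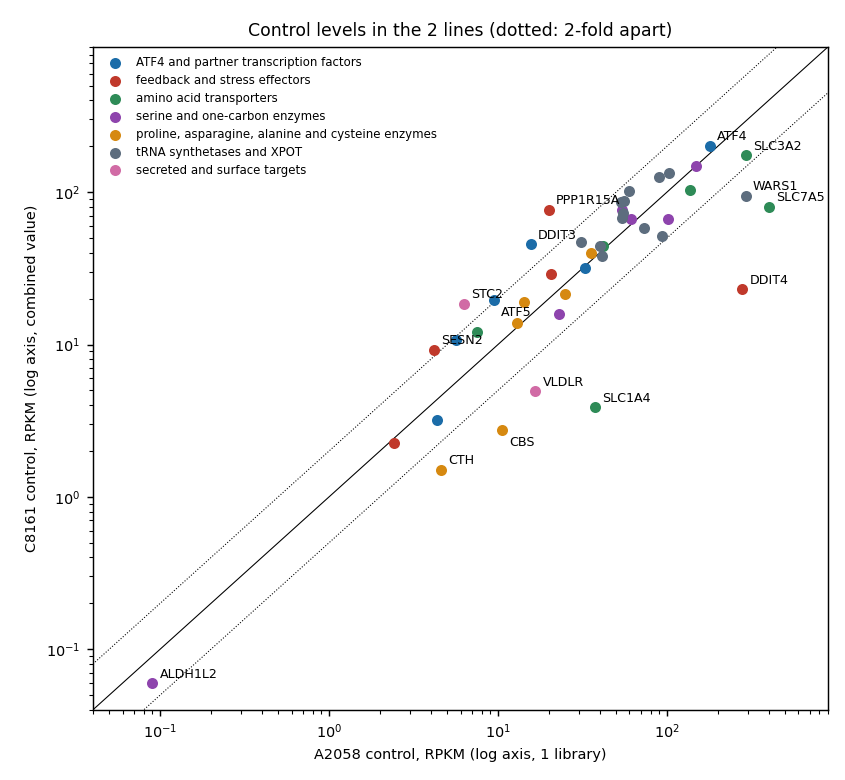
Level of each member in the C8161 control (vertical, RPKM, combined value) against that in the A2058 control (horizontal, RPKM, 1 library), both on log axes, coloured by role; the solid line marks equal levels, the dotted lines 2-fold, and FGF21, listed at 0, is not drawn. DDIT4, SLC1A4, SLC7A5 and CBS lie furthest below the lines and PPP1R15A, DDIT3, STC2, SESN2 and ATF5 above them, with ATF4 near the solid line.

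Genes around the pathway were taken from lists of the eIF2 kinases and eIF2 machinery, further ATF4 targets, other tRNA synthetases, one-carbon enzymes and the neighbouring stress responses. Of the 18 genes of the eIF2 kinases and machinery 2 (11.1%) were higher and 0 lower in C8161, against 5.33% and 6.63% of all genes. In A2058 0 were called, against 4.23% higher and 3.51% lower among all genes. EIF2AK1, the haem-regulated kinase, was at 35.7 RPKM in C8161 with ATF3 and 32.5 RPKM in control. EIF2AK2, the RNA-sensing kinase PKR, was at 14.8 and 12.1 RPKM, a log2 ratio of 0.28, and in A2058 at 8.01 and 8.89 RPKM, a log2 ratio of −0.13. EIF2AK3, the endoplasmic reticulum kinase PERK, was at 4.65 and 4.26 RPKM in C8161 and at 4.61 and 3.90 RPKM in A2058. EIF2AK4, the amino acid sensor GCN2, was at 21.8 and 21.9 RPKM in C8161 and at 14.9 and 15.3 RPKM in A2058. All 4 kinases were thus present in both lines, and EIF2AK2 was the one called. The second higher gene of this list was DNAJC3, a chaperone that inhibits eIF2 kinases, at 0.24 and, with the trends removed, at 0.18; EIF2AK2 was then at 0.21, and GCN1, the activator of GCN2, was lowest (−0.18).

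Of 28 further ATF4 targets compared, ATF3 among them, 2 (7.14%) were higher and 4 (14.3%) lower in C8161, with a median of 0.03. Among all genes 5.33% were higher and 6.63% lower. Apart from ATF3, the higher one was HERPUD1, a factor of endoplasmic reticulum protein degradation, at 129 and 97.1 RPKM (0.40). GDF15, a secreted stress hormone, was at 4.45 and 5.99 RPKM (−0.36), and EIF4EBP1, a translation inhibitor, at 58.0 and 72.4 RPKM (−0.32). With the GC and length trends removed the 2 higher genes stayed past 0.2, but of the 4 lower ones only GDF15 did (−0.24), EIF4EBP1 being at −0.16. In A2058 2 (7.14%) were higher and 1 (3.57%) lower, against 4.23% and 3.51% of all genes. Called there were ATF3, HMOX1, which degrades haem (0.22), and JDP2, an AP-1 repressor (−0.24). The 11 cytosolic synthetase genes outside the members had a median of −0.00 in C8161, with VARS1 (−0.23) the 1 lower, 9.09% of them. Of the 17 mitochondrial synthetases 14 lay below 0, as did 5175 of all 10941 genes. The median of these synthetases was −0.07, and CARS2 (−0.23) and SARS2 (−0.21), 11.8% of them, were lower. With the trends removed VARS1 was at −0.14 and SARS2 at −0.12, neither past 0.2, and CARS2 at −0.20 still was. The 9 further one-carbon enzymes compared had a median of −0.05 and 0 called, with SHMT1 and MTHFD1L lowest (both −0.15).

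The targets of ATF6 and XBP1, the other arms of the endoplasmic reticulum stress response, stood higher in C8161 than the members as a whole. Of 22 compared 11 (50%) were higher, against 5.33% of all genes, and 0 were lower, against 6.63%. The median was 0.19, against 0.06 for the members, and 8 of the 22 lay above their bands, against 2.63% of all genes. With the GC and length trends removed 7 of the 22 were higher, with a median of 0.18, against 7 of the 43 members, with a median of 0.04. Of all genes 4.97% then were. By role, the feedback and stress effectors then had a median of 0.27, above that of the ATF6 and XBP1 targets, and the transcription factors one of 0.17. MANF, a secreted protective factor, was at 194 and 148 RPKM (0.39), and HSPA5, the main chaperone of the endoplasmic reticulum, at 842 and 655 RPKM (0.36). In A2058 0 of 23 were called, against 4.23% higher and 3.51% lower among all genes, with a median of 0.01. Of 10 chaperones and proteases of the mitochondrial stress response 3 (30%) were lower in C8161, against 6.63% of all genes. CLPP (−0.26) and TRAP1 (−0.22) were lowest, and 0 were called in A2058. With the GC and length trends removed 0 of the 10 were lower in C8161, against 3.6% of all genes, CLPP being at −0.13 and TRAP1 at −0.18. The difference between these lists and the members was not tested.

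**Figure D5:**
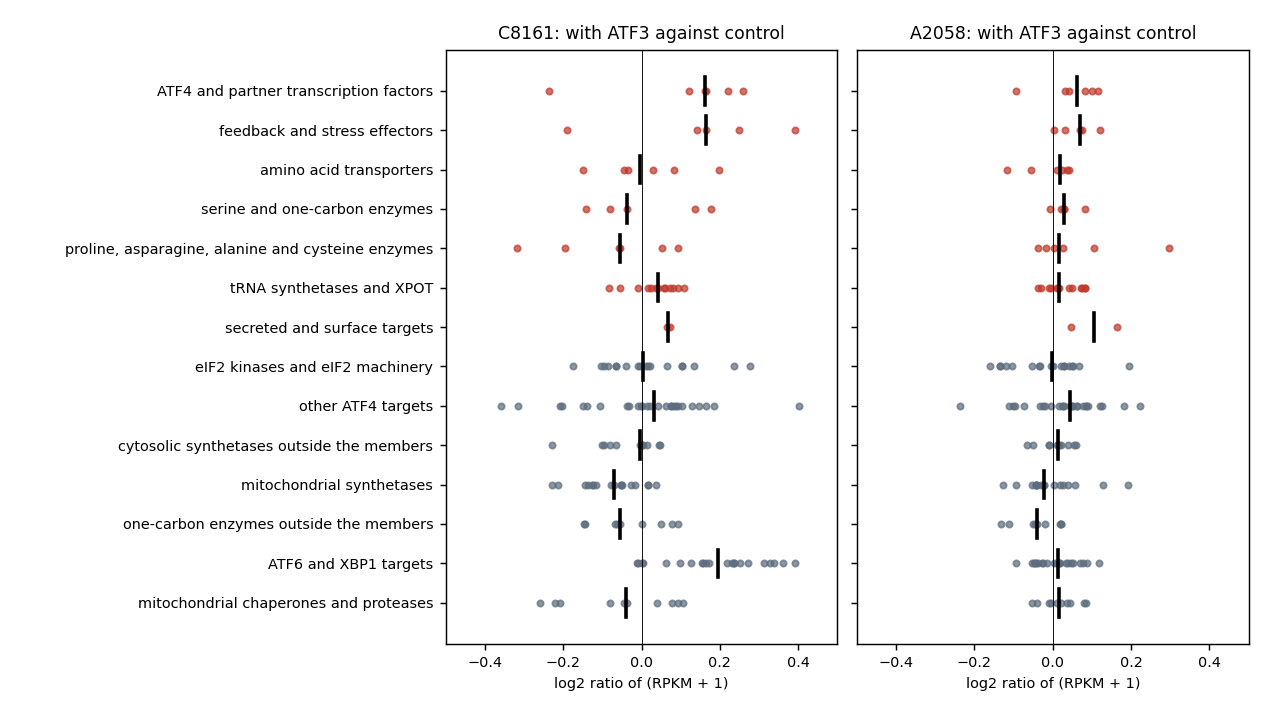
Log2 ratio of RPKM + 1, ATF3 minus control, for each gene of the 7 role groups of the members (red) and 7 further lists (grey), in C8161 (left) and A2058 (right); each point is 1 gene, ATF3 lies beyond the range drawn, and the black bar is the list's median. The ATF6 and XBP1 targets have the highest median drawn in C8161 (0.19), next to 0.16 for the transcription factors and for the feedback genes. With the GC and length trends removed, not drawn, these medians were 0.18, 0.17 and, for the feedback genes, 0.27. No list's median in A2058 lies beyond 0.11.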

How the data were processed

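The file deposited by the authors holds RPKM per gene, per the file headers, in 4 value columns: 1 for each A2058 library and 1 combined value for each C8161 arm. Whether the combined values are means or come from pooled reads is not given in the sources used here, and neither are the gene annotation, strand setting or filters. Per the submitters' processing notes, Bowtie2 and RSEM were used on hg38; no versions are given.

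Values were used as deposited. The planned limma test needed a value per library and could not be run. Ratios were log2(RPKM + 1) differences over genes with at least 1 RPKM in 1 of 2 columns; sizes of 0.2 within a line and 1 between lines, and level bands of 500 genes, describe 1 pair of columns and are not tests. The computations (Python 3.11.15, numpy 2.4.6, pandas 2.3.3, scipy 1.17.1) were tested on simulated data. Symbols, coordinates and promoters came from RefSeq (GRCh38.p14), and 18156 of 18478 identifiers had a symbol. GC content, length, exon overlap and shared sequence came from GENCODE 29 (GC content for 17850 genes). The GC and length trends were removed from the ratios as an alternative. The depth of the A2058 columns was estimated from steps of whole reads over transcripts of 400 to 1500 bases.

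The members and lists were chosen with earlier results of these data known. Named were ATF4, ATF5, DDIT3, PPP1R15A, TRIB3, ASNS, CHAC1, SESN2, members past 0.2 or outside their band, the 8 highest and 8 lowest between the control lines, every eIF2 kinase, ATF3, GDF15, and the 2 highest and 2 lowest of each further list in each line, of which only some are printed. Other members are named as ends of a range or holders of a motif, after their values were seen. Alternatives were other pseudocounts, minimum levels, scalings and sizes, removal of genes of shared sequence, and the sum of CBS and CBSL, the last chosen after seeing the data.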

Additional observations from a re-analysis of the deposited data

Results flagged for a closer look

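For 4 genes the log2 ratios, ATF3 minus control, lay on opposite sides of 0 in C8161 and A2058, each by at least 0.1, with at least 1 of them past 0.2. GDF15, a secreted stress hormone, differed by −0.54 between the lines (C8161 minus A2058), from −0.36 in C8161 and 0.18 in A2058; its levels were 4.45 and 5.99 RPKM in C8161 against 202 and 178 RPKM in A2058. CBS differed by −0.49, from −0.20 and 0.30, and shares nearly all of its sequence with CBSL. EIF2AK2 differed by 0.41, from 0.28 and −0.13. CEBPB differed by −0.34, from −0.24 and 0.10. With the GC and length trends removed, EIF2AK2 (0.21 and −0.08) and CEBPB (−0.095 and 0.08) no longer met this rule. GDF15 (−0.24 and 0.16) and CBS (−0.14 and 0.28) still did. With 1 value per arm the difference between the lines was not tested for any of them.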

How the results depend on the processing

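No paired analysis was possible because each arm has 1 value column, and for the same reason leaving out single replicates could not be run. Among results on the whole list 73 values stayed near the main value, 10 counts were higher and 7 lower by over 1.5 times, and 3 medians moved, none of them across 0; among named members 60 stayed, 1 moved and 1 reversed. In C8161, 4 members were higher and 2 lower: 7 and 1 with the GC and length trends removed, 9 and 4 at a size of 0.15, and 1 and 1 at 0.3. CEBPB in C8161 moved to −0.10 with the trends removed. In A2058, 1 member was higher: 2 at a size of 0.15, and 0 at 0.3, without genes of shared sequence, or with CBS and CBSL summed, where CBS reversed to −0.094. Between the control lines 3 members were higher in C8161: 5 with a pseudocount of 0.1, with median-centred ratios or with the trends removed, 6 with quantile normalization, 11 at a size of 0.5 and 1 at 1.5. The 7 lower became 11 at 0.5. The members' median of 0.12 was 0.22 with quantile normalization, 0.31 with median-centred ratios and 0.21 with the trends removed; centring shifts every ratio by the median of all genes, −0.19. The causes of the other moves were not tested. The depth of the C8161 columns is unknown, and in A2058 counting error limits low genes such as CHAC1.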
